A study of Homo sapiens with 8 samples.

Results

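The genes described here are those of Kyse510 cells carrying an inducible hairpin against LSD1, compared between the library given doxycycline and the library left without it. Kyse510 is an established human line of esophageal squamous cell carcinoma (ESCC). A gene was a member when its level reached 1 FPKM (fragments scaled by transcript length and by library size) in at least 1 of the 2 libraries, which left 12970 genes of the 28942 in the knockdown table and of 34164 in the series as a whole. Of these, 11423 reached 1 FPKM in both libraries, 605 only without doxycycline, and 942 only with it. The members just inside the limit were COL4A3 (1.000043 FPKM without and 0.401 with doxycycline) and CPM (0.628 and 1.0006), and those just outside were CCT8P1 (0.782 and 0.9996) and ERCC6 (0.999 and 0.918).

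The shLSD1 line was made by lentiviral infection and puromycin selection for 14 days, and its hairpin is silent until doxycycline is added. The library called shLSD1 with doxycycline came from cells given the drug for 2 days, and the library called shLSD1 without doxycycline from the same line left untreated. Values are set beside the shG9a line, which was made and induced in the same way with a hairpin against G9a (EHMT2) and has its own untreated library, and beside parental Kyse510 cells given vehicle or 7 µM SP2509, an LSD1 inhibitor, for 2 days. Each condition was 1 library of total RNA. The labels describe the control library as the shLSD1 line left untreated, and that is followed here, but the study's text names cells with a nonsilencing hairpin as the comparison for the knockdown, so what the control holds rests on the labels. No library with doxycycline and without a hairpin was analysed here, and the drug and the hairpin therefore cannot be told apart in any difference given here.

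LSD1, the product of KDM1A, removes methyl groups from lysine 4 of histone H3 (H3K4), and in some settings from lysine 9 (H3K9). It works mostly as a corepressor held on chromatin by CoREST (RCOR1), together with the deacetylases HDAC1 and HDAC2, and is recruited by factors such as SNAI1 and REST. A short hairpin RNA is cut by DICER1 into a small duplex whose antisense strand guides an Argonaute protein to the matching mRNA, while its bases 2 to 8, the seed, can also repress other mRNAs in the way a microRNA does. Doxycycline is itself an antibiotic that binds bacterial and mitochondrial ribosomes.

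The sequences are shown first because every comparison in this line rests on them. The study states that the inducible construct carries the sequence of its first LSD1 hairpin. The target was found without mismatch in the coding part of exon 16 of the 21 exons of KDM1A (transcript ENST00000400181), at chr1:23077307-23077327 on the plus strand of GRCh38. In the antisense arm the capitals mark the seed.
KDM1A target: gcctagacattaaactgaata
antisense arm: tATTCAGTttaatgtctaggc

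KDM1A, at chr1:23019443-23083689, checked the labels. It stood at 26.0 FPKM without and 6.29 FPKM with doxycycline, from 2509 and 599 reads, which is a 4.13-fold lower level with a 95% counting interval of 3.78 to 4.52. The shG9a line had 26.4 FPKM without and 35.8 FPKM with doxycycline, so the fall was seen in the induced shLSD1 library and not in the other induced library. Intervals here are exact binomial intervals on the reads and cover counting error only.

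With doxycycline, 2945 of the 12970 genes (22.7%) were called higher and 1348 (10.4%) were called lower. A call required a fold of at least 1.3 on the scale of FPKM plus 1 and a two-sided exact binomial p under 0.05 on the reads, so that it compares a pair of libraries and not a pair of conditions. Log2 fold changes below are of FPKM plus 1, with over without doxycycline, whereas folds in words are plain ratios of FPKM. The median of all members lay at 0.13 on the log2 scale, with 5% of genes below -0.78 and 5% above 0.87. This shift decides the balance of the calls, since TMM scaling, which moves the median close to 0, gave 1865 higher and 1950 lower calls, or 48.9% higher in place of 68.6%. TMM lowers every value with doxycycline by the same factor. The 1348 lower calls therefore stayed and its 1865 higher calls were all among the 2945, which gives no separate support to the calls.

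The same rule applied to the untreated libraries of the shLSD1 and shG9a lines, a comparison added after the data were examined, called 270 genes (2.17%) higher and 169 (1.36%) lower among 12449. The 2 lines were thus close to each other before induction, although this says nothing of how far a repeated culture with doxycycline would differ. At a fold of at least 2 the induced shLSD1 library had 346 genes higher and 326 lower, against 30 and 17 between the untreated libraries. The genes called lower held 19.4% of all reads without doxycycline and 9.50% with it, and the genes called higher held 14.3% and 23.6%. The median level without doxycycline was 7.81 FPKM for the lower genes, 4.10 FPKM for the higher genes, and 4.99 FPKM for all members. Depth was similar, at 17754601 and 17507907 reads.

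**Figure D1:**
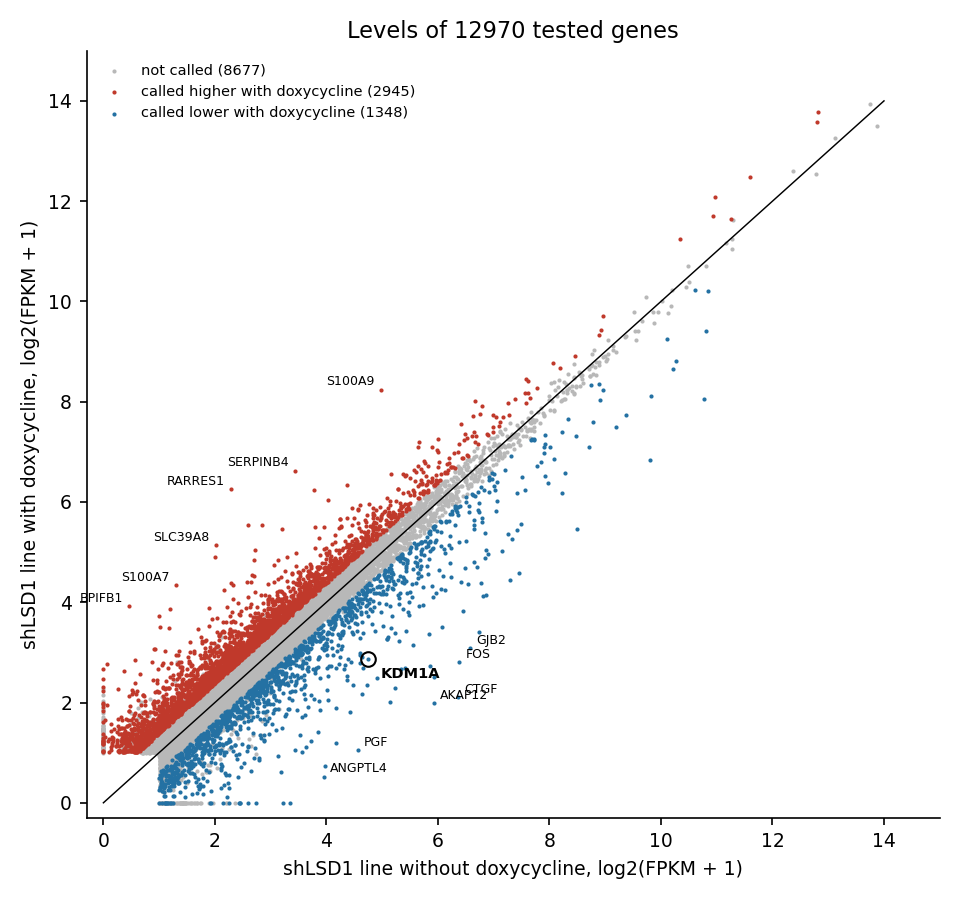
Level of each of the 12970 genes in the shLSD1 line without doxycycline (x axis) and with doxycycline (y axis), both as log2 of FPKM plus 1, with 2945 genes called higher in red and 1348 called lower in blue. KDM1A is circled below the line of equal levels, S100A9, SERPINB4 and RARRES1 lie far above it, and CTGF and AKAP12 lie far below it.

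The protein-coding genes that rose most included RARRES1, S100 proteins and serpins. RARRES1, a retinoid-responsive membrane protein at chr3:158696892-158732696, stood at 3.90 FPKM without and 75.3 FPKM with doxycycline, a 19.3-fold rise (16.4 to 22.8). The calprotectin subunits rose together, S100A9 from 30.4 to 302 FPKM and S100A8 from 1.29 to 13.5 FPKM. Their relative S100A7, or psoriasin, rose from 1.47 to 19.3 FPKM. SERPINB4 (9.79 to 97.8 FPKM) and SERPINB3 (5.07 to 45.8 FPKM), protease inhibitors that are near-identical copies and may share reads, rose as well.

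The elastase inhibitor PI3 rose from 3.03 to 29.1 FPKM and the zinc and manganese importer SLC39A8 from 3.06 to 34.4 FPKM. A group of 3 liver-type secreted proteins were also among the 12 largest increases. Fibrinogen-like FGL1 went from 0.990 to 12.2 FPKM, the acute-phase apolipoprotein SAA1 from 6.16 to 45.8 FPKM, and the fibrinogen beta chain FGB from 0.0416 FPKM (2 reads) to 5.80 FPKM (275 reads), a ratio with a counting interval of 38.2 to 1157. BPIFB1, a secreted antimicrobial protein of airway and oral epithelium, rose from 0.381 to 14.1 FPKM. In the induced shG9a library the log2 change of these 12 genes ran from -1.51 for SAA1 to 1.62 for BPIFB1, and RARRES1 stood at -0.54, PI3 at -0.52 and SLC39A8 at 0.00.

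The protein-coding genes that fell most included CTGF, AKAP12 and FOS. CTGF (CCN2), a matricellular target of YAP and TGF-beta at chr6:131948176-131951373, stood at 81.2 FPKM without and 3.32 FPKM with doxycycline, 24.4-fold lower (20.6 to 29.2). Its relative CYR61 fell from 56.9 to 5.58 FPKM and the scaffold AKAP12 from 59.6 to 2.96 FPKM. FOS fell from 82.3 to 5.96 FPKM, and ERRFI1, a feedback inhibitor of the EGF receptor, from 105 to 9.54 FPKM. The secreted proteins PGF (22.6 to 1.08 FPKM) and ANGPTL4 (14.5 to 0.437 FPKM) fell too.

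Others among the 12 largest decreases were GJB2 (connexin 26, 94.8 and 7.51 FPKM), the transcription factor SOX9 (14.8 and 0.668 FPKM), the glycogen regulator PPP1R3C (34.3 and 3.06 FPKM), and NDRG1 (359 and 42.9 FPKM). All 12 were lower with doxycycline in the shG9a line too, with log2 changes of -5.71 for CTGF to -3.16 for SOX9. Parental cells given vehicle also had less of all 12 than the untreated shLSD1 line, such as FOS at 6.11 and ANGPTL4 at 0.386 FPKM. With SP2509 against vehicle, 8 of the 12 rose by over 1 on the log2 scale, as CTGF did from 5.90 to 277 FPKM and CYR61 from 8.89 to 439 FPKM.

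Among genes of other types the largest increases were LINC00342 (3.92 to 19.7 FPKM), AL512274.1 (0.834 to 5.97 FPKM) and AL356234.2 (0.487 to 4.25 FPKM), all long intergenic RNAs. The largest decreases were the keratin pseudogene KRT16P1 (17.1 to 1.28 FPKM), whose reads may be shared with the keratin genes it copies, and the neighbouring long intergenic RNAs AF064858.2 (174 to 22.9 FPKM) and AF064858.3 (99.04 to 26.8 FPKM) on chromosome 21. By gene type, 23.5% of protein-coding, 25.8% of long intergenic, 22.6% of antisense and 15.2% of processed pseudogenes were called higher. Only 3.45% of the 116 microRNA genes tested were called higher, and in these short genes few reads stand behind each value.

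Of 30 tested members of the list of LSD1 and its complex, 6 were called lower and 2 higher, and the median log2 change was 0.09. KDM1A fell most. Its nearest relative KDM1B, which also removes H3K4 methylation, fell from 6.22 to 3.64 FPKM. The core scaffold RCOR1 stood at 10.6 FPKM without and 13.8 FPKM with doxycycline, just short of a call at 0.35, while the paralog RCOR2 fell from 9.401 to 3.15 FPKM and RCOR3 stood at 5.27 and 4.44 FPKM. The deacetylases HDAC1 (50.8 and 61.3 FPKM) and HDAC2 (13.3 and 14.2 FPKM) were not called.

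The reader of unmodified H3K4, PHF21A, stood at 5.28 and 4.20 FPKM, and the DNA-binding partners HMG20B (34.9 to 23.1 FPKM) and ZMYM2 (7.66 to 5.23 FPKM) fell, whereas GSE1 and ZMYM3 were not called. Of the recruiting factors, SNAI2 fell from 15.4 to 4.76 FPKM, SNAI1 stood at 0.869 and 1.29 FPKM, REST at 5.32 and 5.79 FPKM, and ZNF217 rose from 12.7 to 17.4 FPKM. In the NuRD complex, which LSD1 also joins, MBD3 rose from 4.40 to 6.14 FPKM. CHD3, CHD4, MBD2, MTA1, MTA2, MTA3, GATAD2A, GATAD2B, RBBP4 and RBBP7 were between -0.05 and 0.32. CHD4 was near the floor here, at 1.08 and 1.57 FPKM, beside 56.2 FPKM in vehicle cells, and the reason was not tested. The corepressors CTBP1 and CTBP2 were at 0.15 and -0.23. The calls of ZNF217 and MBD3 did not hold with TMM scaling, which left 7 members lower, PHF21A included, and none higher.

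Among 27 enzymes that write or remove H3K4 and H3K9 methylation, 5 were called higher and 5 lower. KDM3A, an H3K9 demethylase known as a hypoxia target, fell from 20.6 to 5.97 FPKM and KDM4B, another H3K9 demethylase, from 5.24 to 3.17 FPKM. SMYD3 was 1.67-fold lower (1.44 to 1.95). TMM scaling gave 3 higher and 7 lower. The H3K4 methyltransferase SETD1B rose from 3.27 to 7.25 FPKM. EHMT2, which encodes G9a, stood at 7.998 and 7.969 FPKM, and is given, outside the rule for naming genes, because it is the target of the other hairpin.

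Of 30 tested members of the hypoxia and glycolysis list, 30 were called lower and none higher, where 10.4% of all genes were called lower and 22.7% higher. The median log2 change was -1.50. The glucose importer SLC2A1 fell from 898 to 113 FPKM, 7.93-fold lower (7.70 to 8.18). NDRG1, a stress gene and classic hypoxia target, was 8.37-fold lower (8.17 to 8.58). The vasodilator peptide gene ADM fell from 155 to 20.7 FPKM and the glycolytic enzyme ENO2 from 41.3 to 5.43 FPKM. Parental cells given vehicle had less of these genes than either untreated line, with SLC2A1 at 151, NDRG1 at 45.5, ADM at 31.2 and ENO2 at 5.62 FPKM. The falls thus started well above the vehicle levels and ended nearer to them. The vehicle library was normalised separately, and the reason for this difference was not tested.

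The fall reached every step of glycolysis listed, though by different amounts. HK2, which traps glucose in the cell, fell from 118 to 30.1 FPKM and ENO1 from 1232 to 448 FPKM, whereas the smallest falls were those of GAPDH (1834 to 1188 FPKM) and PKM (242 to 161 FPKM). The pH regulator CA9 fell from 115 to 16.8 FPKM and the oxygen sensor EGLN3 from 111 to 16.4 FPKM. These 6 genes were named after their values were seen. The remaining member, SLC2A3, stayed under 1 FPKM and was not tested. In the shG9a line 29 of 30 fell, with a median of -1.62, and the untreated libraries of the lines had no call in this list. With SP2509 against vehicle 23 of 30 rose and 1 fell, with a median of 1.05.

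Of 30 tested genes of EGF receptor signalling, ERK feedback and the immediate early response, 13 were called lower and 3 higher, with a median of -0.30. Subunits of AP-1 were among the largest falls. FOS was 13.8-fold lower (12.4 to 15.5), FOSL1 fell from 39.2 to 5.33 FPKM and JUN from 84.3 to 20.2 FPKM. The ERK phosphatase DUSP5 fell from 91.9 to 19.7 FPKM. The 3 genes that rose, named after their values were seen, were ERBB3 (7.62 to 16.8 FPKM), IER2 (7.21 to 11.2 FPKM) and SPRED2 (5.25 to 7.26 FPKM). TMM scaling gave 2 higher and 16 lower. With the shG9a hairpin 26 of 31 tested members fell and the median was -1.43.

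Of 26 genes of epithelial-mesenchymal transition, 7 were higher (26.9%, against 22.7% of all genes) and 6 lower (23.1%, against 10.4%). The median was -0.07, and TMM scaling gave 6 higher and 8 lower. Among the falls were the fibronectin receptor subunit ITGA5 (29.2 to 4.65 FPKM), SNAI2 and the metalloproteinase inhibitor TIMP3 (43.6 to 15.01 FPKM). The adhesion gene CDH1 stood at 84.03 and 78.7 FPKM and was not called, and it is given because it defines the epithelial state.

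In the list of ID genes and of BMP, Notch and Wnt targets, 11 of 24 were lower and 6 higher. The Notch target HEY1 fell from 4.41 to 0.972 FPKM, and the ligands JAG1 (12.9 to 4.99 FPKM) and DLL1 (54.8 to 25.5 FPKM) fell with it. HES2 rose from 1.84 to 4.84 FPKM.

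In the list of 31 unfolded protein response and endoplasmic reticulum (ER) chaperone genes, 16 were lower and 2 higher, with a median of -0.50. The disulfide isomerase PDIA4 fell from 309 to 94.2 FPKM, the lectin chaperone CALR from 581 to 180 FPKM, and HSP90B1, the HSP90 of the ER, from 662 to 211 FPKM. SEL1L, the scaffold of ER-associated degradation, was 3.34-fold lower (3.10 to 3.59). Its 3 prime UTR holds a match of 11 bases to the antisense arm of the hairpin. In the shG9a line its log2 change was -1.52. The 2 members that rose were DNAJB9 (11.2 to 16.1 FPKM) and XBP1 (61.4 to 86.2 FPKM), an ER co-chaperone and a transcription factor of this response, named after their values were seen. Neither call held with TMM scaling, which left 20 members lower and none higher. In the shG9a line both fell, with log2 changes of -1.54 and -1.22, and 28 of 31 members were lower and none higher and the median was -1.47.

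The ATF4 list divided inside the shLSD1 line. Of 32 members 9 rose (28.1%, against 22.7% of all genes) and 7 fell (21.9%, against 10.4%). The median was 0.07, beside the 0.13 of all genes. PPP1R15A, which restores translation after stress, fell from 178 to 46.0 FPKM, the mTOR inhibitor DDIT4 from 417 to 136 FPKM, and the stress factor ATF3 from 34.2 to 14.1 FPKM. CHAC1, a glutathione-degrading enzyme, rose from 8.84 to 20.5 FPKM. CHAC1 went the other way with the shG9a hairpin, from 10.8 to 0.617 FPKM, where 29 of 32 members fell with a median of -1.56. TMM scaling turned the balance of this list, to 6 higher and 9 lower.

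**Figure D2:**
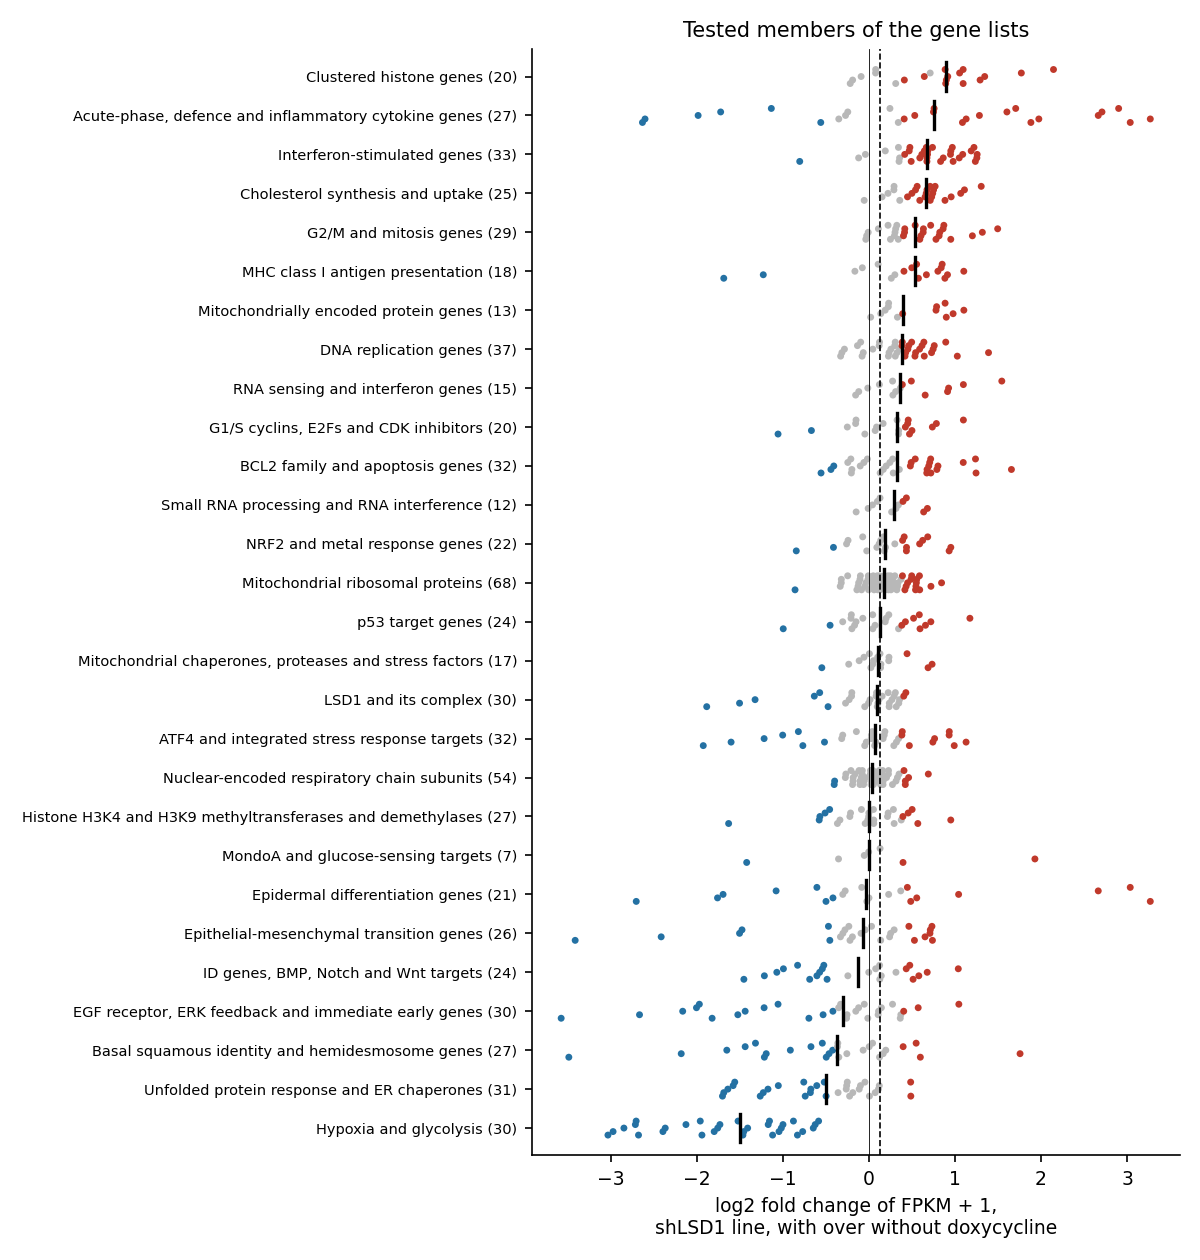
Log2 fold change of FPKM plus 1 (x axis), with over without doxycycline in the shLSD1 line, for each tested member of the 28 gene lists, with red for called higher, blue for called lower and grey for not called. Black bars are list medians, the dashed line is the median of all 12970 genes at 0.13, and the number of tested members follows each list name. All 30 members of the hypoxia and glycolysis list lie to the left.

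Interferon-stimulated genes rose, with 26 of 33 higher and 1 lower and a median of 0.67. The antiviral gene TRIM22 rose from 2.82 to 8.12 FPKM, IFI35 from 17.8 to 43.9 FPKM, OAS2, which makes the activator of RNase L, from 1.097 to 3.94 FPKM, and the mono-ADP-ribosyltransferase PARP9 from 2.31 to 6.70 FPKM. The member that fell, GBP1, stood at 10.8 and 5.72 FPKM and was named after its value was seen. Of the same list, 21 of 33 rose and 4 fell in the shG9a line, with a median of 0.51.

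Of 15 tested RNA sensing and interferon genes, 7 rose and none fell, with a median of 0.36. DDX58, which encodes the RNA sensor RIG-I, stood at 2.38 and 8.86 FPKM, a 3.72-fold rise (3.16 to 4.40), and at 2.35 and 9.01 FPKM in the shG9a libraries. The kinase IKBKE rose from 6.71 to 15.5 FPKM, the DNA sensor CGAS from 4.55 to 9.46 FPKM and its adaptor STING (TMEM173) from 15.2 to 29.7 FPKM. The log2 changes of TMEM173 and IKBKE were 0.19 and 0.25 in the shG9a line.

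In the MHC class I list, 11 of 18 rose and 2 fell, with a median of 0.53. The immunoproteasome subunits PSMB10 (10.4 to 23.5 FPKM) and PSMB9 (27.4 to 52.4 FPKM) rose. The 2 members that fell, CALR and PDIA3 (170 to 71.8 FPKM), load peptides on class I molecules and are also ER chaperones counted above. The heavy chains HLA-B and HLA-C, given because they are among the list's defining genes, were at 0.10 and 0.30 and were not called, and their alleles and paralogs share reads.

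The list of acute-phase, defence and inflammatory cytokine genes held large rises and large falls. Of 27 members 16 were higher and 6 lower, with a median of 0.75 and a range of -2.64 to 3.27. With the mean of both untreated libraries as control, the median above that of all genes went from 0.62 to 0.38. S100A9, S100A7, PI3 and SAA1 led it, as described above. The 6 tested members that fell, named after their values were seen, were the NF-kB inhibitor TNFAIP3 (86.6 to 13.1 FPKM), IL1B (20.5 to 2.53 FPKM), IL1A (41.8 to 9.79 FPKM), CXCL8 (49.4 to 14.2 FPKM), IL1RN and IL36G. TMM scaling gave 15 higher and 9 lower. In the shG9a line 1 of 25 rose and 19 fell, with a median of -1.49. Of the untreated libraries, the shLSD1 library was lower than the shG9a library in 5 members of this list and higher in none, so that the lines differed here before induction.

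The plot of selected members in each knockdown library shows this difference. S100A9 stood at 30.4 and 302 FPKM in the shLSD1 line and at 40.7 and 44.1 FPKM in the shG9a line. SAA1 stood at 6.16 and 45.8 FPKM in the first and at 6.61 and 1.67 FPKM in the second. Without doxycycline S100A9 was thus lower in the shLSD1 line than in the shG9a line.

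**Figure D3:**
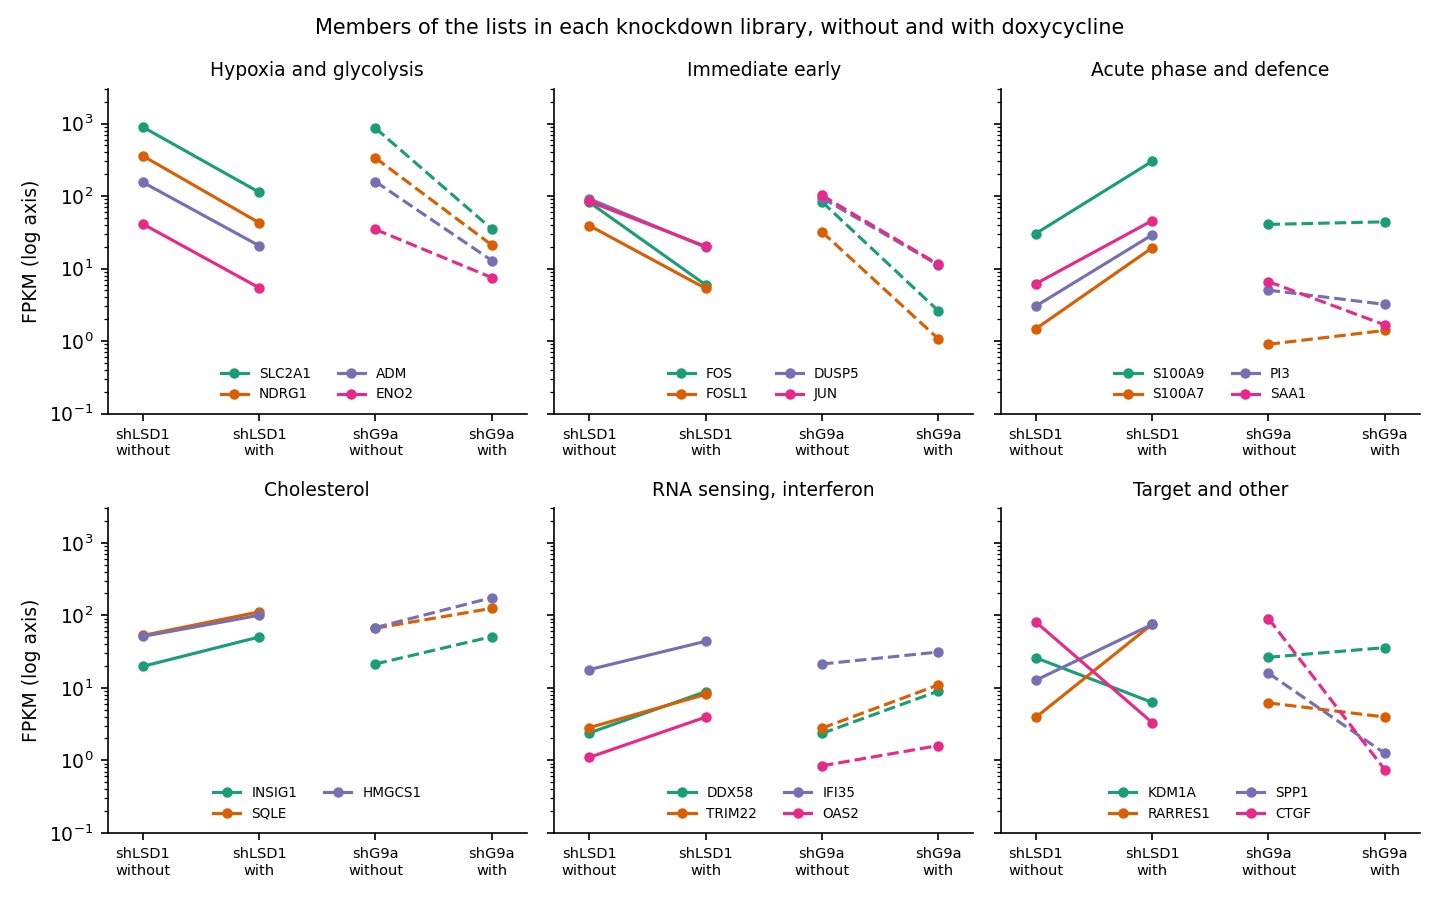
FPKM on a log axis for genes of 6 groups in the shLSD1 (solid lines) and shG9a (dashed lines) libraries without and with doxycycline, each point being 1 library. Hypoxia and immediate early genes fall in both lines, cholesterol, RNA sensing and interferon genes rise in both, and S100A9, RARRES1 and SPP1 rise in the shLSD1 line alone of these lines.

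Of 25 genes of cholesterol synthesis and uptake, 19 rose and none fell, with a median of 0.66. INSIG1, which retains the sterol sensor in the ER and is itself a target of SREBP2, rose from 19.7 to 50.2 FPKM. The synthetic enzymes SQLE (52.7 to 111 FPKM) and HMGCS1 (51.1 to 100.1 FPKM) rose too. The shG9a line gave 19 higher and none lower of 25, with a median of 0.74, whereas SP2509 gave 1 higher and 15 lower.

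Transcripts of the mitochondrial genome rose unevenly. Of 13 protein genes 7 were higher and none lower, with a median of 0.39, and their genome took 8.68% of reads without and 10.4% with doxycycline. MT-CYB rose from 2006 to 4309 FPKM, MT-CO3 from 7176 to 14130 FPKM, MT-ND3 from 1299 to 2421 FPKM and MT-ND1 from 3090 to 5704 FPKM. The other 3 called members were MT-ND2, MT-CO2 and MT-ND5, and MT-CO1 stood at 13750 and 15650 FPKM without a call, all 4 named after their values were seen. In the shG9a line, where doxycycline was also present, 12 of 13 rose, with a median of 0.94.

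Nuclear genes for mitochondria moved little. Of 68 mitochondrial ribosomal proteins 14 rose, or 20.6% against 22.7% of all genes, and 1 fell, with a median of 0.17. TMM scaling left 7 higher and 5 lower. MRPL15 (27.6 to 50.3 FPKM), MRPS15 (30.3 to 50.6 FPKM) and MRPL20 (16.4 to 25.2 FPKM) rose and MRPS6 fell from 6.34 to 3.04 FPKM. Of 54 respiratory chain subunits 5 rose and 2 fell, with a median of 0.03, and of 17 mitochondrial chaperones and proteases 3 rose and 1 fell. TFAM, which packages and transcribes the mitochondrial genome, rose from 7.26 to 12.7 FPKM, the helicase TWNK from 4.55 to 7.93 FPKM, and the chaperone DNAJA3 from 13.5 to 18.7 FPKM, a call that TMM scaling removed, while the protease LONP1 fell from 53.4 to 36.1 FPKM. NDUFS6 of complex I rose from 50.04 to 81.3 FPKM, and NDUFB7, NDUFS1 and NDUFS5 rose 1.38-fold, 1.39-fold and 1.34-fold, calls that TMM scaling removed.

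The NRF2 and metal response list gave 9 higher and 2 lower of 22, and 5 and 4 with TMM scaling. Between the untreated libraries 2 members of this list were higher and 7 lower in the shLSD1 line. With the mean of both untreated libraries as control, the list's median relative to all genes turned from 0.06 to -0.07. The transporter ABCC2 rose from 10.3 to 20.9 FPKM, the cystine importer SLC7A11 from 8.46 to 17.0 FPKM, and TXNRD1 from 72.5 to 117 FPKM. The metallothionein MT1X fell from 1.49 to 0.387 FPKM, from 47 and 12 reads. Of 7 genes of the glucose sensor MondoA and its targets, 2 rose and 1 fell. ARRDC3 fell from 52.1 to 18.8 FPKM and ARRDC2 rose from 4.28 to 5.94 FPKM, a call that TMM scaling removed. TXNIP, an inhibitor of glucose uptake, rose from 1.15 to 7.18 FPKM, beside 1.12 and 48.9 FPKM in the libraries of the shG9a line.

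Cell cycle genes rose in part. Of 37 DNA replication genes 19 were higher and none lower, with a median of 0.38. The ribonucleotide reductase subunit RRM2 rose from 1.85 to 6.47 FPKM, the flap endonuclease FEN1 from 5.41 to 12.1 FPKM, the sliding clamp PCNA from 22.9 to 43.4 FPKM, and the helicase subunit MCM4 from 10.7 to 18.8 FPKM. TMM scaling gave 12 higher and 3 lower in this list, and the mean of both untreated libraries as control took its median above that of all genes from 0.25 to 0.15. Of 29 G2/M and mitosis genes 18 rose and none fell, with a median of 0.54, among them AURKB (5.55 to 17.5 FPKM), CDC25C (1.28 to 4.69 FPKM), CDC25B (16.7 to 39.7 FPKM) and KIF20A (7.61 to 15.6 FPKM).

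In the G1/S list 8 of 20 rose and 2 fell, with 5 and 2 under TMM scaling. CDC25A rose from 0.862 to 2.98 FPKM, E2F1 from 3.83 to 7.30 FPKM and E2F3 from 4.31 to 7.84 FPKM, while MYC fell from 219 to 105 FPKM. The clustered histone genes, whose mRNAs are made in S phase and mostly lack a poly(A) tail, had the highest list median at 0.89, with 13 of 20 higher and none lower. HIST1H2BO rose from 6 to 49 reads, HIST1H2BJ from 38 to 168, HIST1H2BK from 681 to 1716 and HIST1H2BC from 48 to 137. These copies resemble each other closely, and reads may be shared among them.

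Of 24 p53 targets 8 rose and 2 fell, or 6 and 3 under TMM scaling, and the median of 0.13 was that of all genes. AEN rose from 1.63 to 4.93 FPKM, SESN1 from 1.496 to 2.93 FPKM, and BBC3, which encodes PUMA, from 5.63 to 9.91 FPKM. GADD45A fell from 40.9 to 19.99 FPKM. Among 32 BCL2 family and apoptosis genes 15 rose and 3 fell, with a median of 0.32. The BH3-only genes BMF (1.92 to 8.21 FPKM), PMAIP1 (NOXA, 18.1 to 44.3 FPKM) and BCL2L11 (BIM, 3.04 to 7.64 FPKM) rose, as did the initiator caspase CASP10 (1.94 to 5.94 FPKM). All 4 also rose in the shG9a line, with log2 changes of 1.01 to 2.52.

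Squamous identity genes were lower in part. In the basal squamous and hemidesmosome list 13 of 27 fell and 4 rose, with a median of -0.37. GJB2 and GJB6 (7.71 to 0.917 FPKM), connexins encoded next to each other, fell together, and DST, which links keratin to hemidesmosomes, fell from 18.9 to 5.33 FPKM. SOX2, a lineage factor of squamous epithelium, rose from 5.25 to 20.1 FPKM. Epidermal differentiation genes divided evenly, with 7 of 21 higher and 7 lower, or 5 and 9 under TMM scaling. KRT17 fell from 1737 to 265 FPKM, from 96556 to 14530 reads, and S100A7, S100A8 and S100A9 rose.

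The cells carried most of the listed markers of a squamous line. Of 8 squamous markers 6 were at 1 FPKM or more in each library, and their summed level was 455 FPKM without and 296 FPKM with doxycycline, against 445 and 720 FPKM in the shG9a line. KRT5, the basal keratin, stood at 188 and 74.6 FPKM in the shLSD1 line and at 178 and 312 FPKM in the shG9a line. TP63 stood at 41.9 and 32.6 FPKM. Markers of other cells were low in both libraries. Fibroblast markers summed to 5.04 and 4.93 FPKM, nearly all of it COL1A1. Leukocyte markers summed to 0.962 and 2.78 FPKM, nearly all of it CD14, with LYZ at 0 in both, and hepatocyte markers to 0. Endothelial markers summed to 5.54 and 14.5 FPKM, of which CDH5 gave 5.21 and 14.0 FPKM, and PECAM1 was at 0.0218 and 0.0221 FPKM. The part of these markers in the other changes was not tested.

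The 12 tested genes of small RNA processing included 4 higher (33.3%) and none lower, beside 22.7% of all genes higher and 10.4% lower. DICER1 rose from 3.94 to 6.67 FPKM, its partner TARBP2 from 6.86 to 11.6 FPKM, the GW182 protein TNRC6A from 4.48 to 6.404 FPKM, and DGCR8, which recognises primary microRNAs, from 2.75 to 3.93 FPKM. TMM scaling kept 2 of these 4 calls, and removed those of TNRC6A and DGCR8. AGO2, the Argonaute that cuts the target, stood at 3.06 and 2.65 FPKM and is given for that role.

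Beside KDM1A, no tested gene's main transcript held a site within 3 mismatches of the hairpin target, and 9 genes held a site with 4. Of these 9, HELZ was lower and NUP50-DT and UBXN8 were higher, all outside the naming rule. HELZ, an RNA helicase, stood at 4.53 and 2.24 FPKM.

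A match to the seed lay in the 3 prime UTR of 1765 of the 10680 tested genes that have one. Their median log2 change was 0.12, against 0.14 for genes without a match, and 19.9% were called higher and 9.41% lower, against 23.4% and 10.3% of all genes with a UTR. The share of lower calls was 11.3% for a match to bases 3 to 9 and 11.2% for bases 2 to 8 followed by an A. It thus lay below or above that of all genes depending on how a match was defined. At 5 FPKM or more, 111 of 970 genes with the match to bases 2 to 8 were lower (11.4%). Of all 7252 genes at that level, those without a UTR included, 866 were lower. Among the 6736 with a UTR, the median was 0.12 with the match and 0.14 without it. For the 1585 genes with the seed match of the shG9a hairpin in the same shLSD1 comparison, the median was 0.13. Genes with the match have longer UTRs, with a median of 3092 bases against 1301 bases for all. When genes were split into 4 groups by UTR length, the 60 genes with a match in the group with the shortest UTRs had a median of -0.05, against 0.10 for the others of that group, with 10 lower and 6 higher. In the other 3 groups the medians were 0.12 to 0.14 with and 0.14 to 0.16 without a match.

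**Figure D4:**
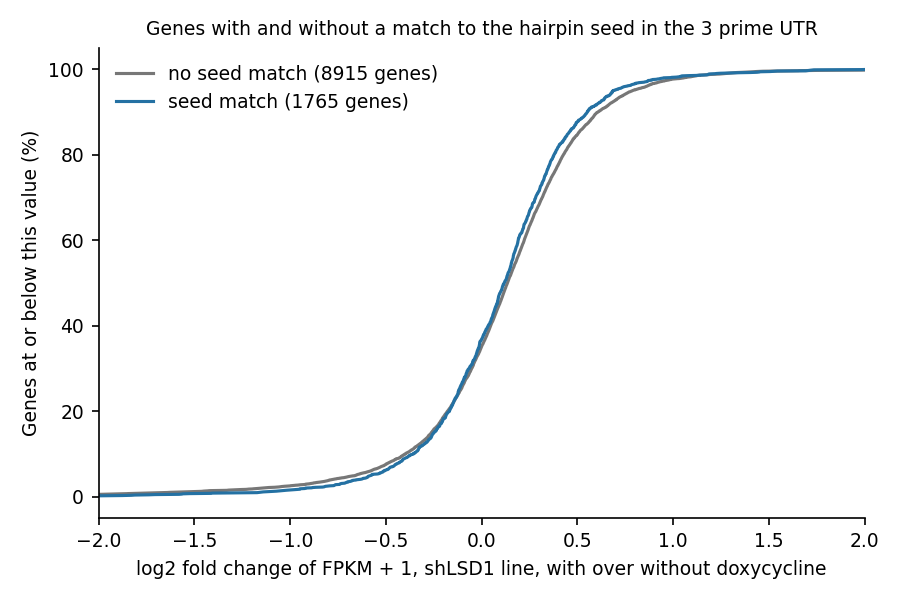
Cumulative share of genes (y axis, %) at or below each log2 fold change of FPKM plus 1 (x axis) in the shLSD1 line, for 1765 genes whose 3 prime UTR holds a match to bases 2 to 8 of the antisense arm and for the other tested genes with a UTR. The curves lie close together, with medians of 0.12 and 0.14.

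The 2 longest matches from base 2 onward and the longest ones in called genes are shown because they reach furthest beyond the seed. In these sites the capitals mark the 7 bases matched by the seed, read 5 prime to 3 prime on the mRNA from GRCh38.
ZNF770: aaggcctgcattaaACTGAATg
WDR77: ctccttaccattaaACTGAATc
KLHL12: attaagtgaattaaACTGAATt
KMO: ctgcttataattaaACTGAATg

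The seed parts lie at chr15:34981258-34981264 and chr1:111440655-111440661 for ZNF770 and WDR77, which match 13 bases, and at chr1:202891895-202891901 and chr1:241592274-241592280 for KLHL12 and KMO, which match 12, as do SS18 and PRDX3, not called. Strands are minus for ZNF770, WDR77 and KLHL12 and plus for KMO. ZNF770 stood at 7.33 and 6.78 FPKM and WDR77 at 2.01 and 2.87 FPKM, neither called. KLHL12, an adaptor of a ubiquitin ligase, fell from 18.1 to 11.6 FPKM and had a log2 change of 0.11 in the other induced line. KMO, an enzyme of tryptophan breakdown, rose from 0.512 to 1.06 FPKM. With a gene counted once at each match length it holds, the median log2 change was 0.14 for the 1320 genes matching 7 bases, 0.10 for the 381 genes matching 8, 0.02 for the 188 genes matching 9, -0.14 for the 38 genes matching 10, of which 12 were lower and 3 higher, and 0.16 for the 19 genes matching 11. The medians fell from 7 to 10 bases and were higher in the few genes with longer matches. Of all genes with a UTR, 10.3% were lower and 23.4% higher. In the shG9a line, the log2 changes of the 12 lower genes matching 10 bases ran from -1.23 for GFPT1 to 1.79 for KCTD12.

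The shG9a line is the nearest comparison, since it shares the vector, the doxycycline and the length of treatment but no library. Its target EHMT2 stood at 7.85 FPKM without and 4.76 FPKM with doxycycline in that line. The shG9a hairpin also has a site with 3 mismatches, its seed part not intact, in the 3 prime UTR of SLC2A1. The log2 change of SLC2A1 in that line was -4.58. Of the 2775 genes called higher in the shLSD1 line and tested in both, 57.2% were higher and 6.38% lower in the shG9a line, where 30.0% of all genes were higher and 15.8% lower. Seen from the shG9a line, 43.7% of its higher calls were higher in the shLSD1 line. Of the genes lower by at least 2-fold in the shLSD1 line, 278, or 88.3%, were also lower in the shG9a line. Across the 12325 genes tested in both, the log2 changes had a Pearson r of 0.56 and a Spearman rho of 0.50. Genes are not independent replicates, and these values describe 4 libraries.

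SP2509 acts on the same enzyme but gave a different order of changes. It called 18.3% of its 13342 genes higher and 37.5% lower. Of the 296 genes lower by at least 2-fold in the shLSD1 line and tested with SP2509, 69.6% were higher with SP2509 and 10.8% lower. Of the 263 genes higher by at least 2-fold, 15.6% were higher and 59.3% lower. Pearson r over 11769 genes was -0.40 and Spearman rho -0.38. Lists differed in this. With SP2509, 26 of 31 unfolded protein response and ER chaperone genes were lower and none higher. Higher and lower were 15 and 1 of 30 interferon-stimulated, 9 and 0 of 18 MHC class I, and 16 and 6 of 25 acute-phase and defence genes. Lists that went the other way included hypoxia (23 of 30 higher), cholesterol (15 of 25 lower) and clustered histones (13 of 23 lower). The inhibitor and knockdown tables were normalised separately, and the cells of the first carry no hairpin and had no doxycycline.

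**Figure D5:**
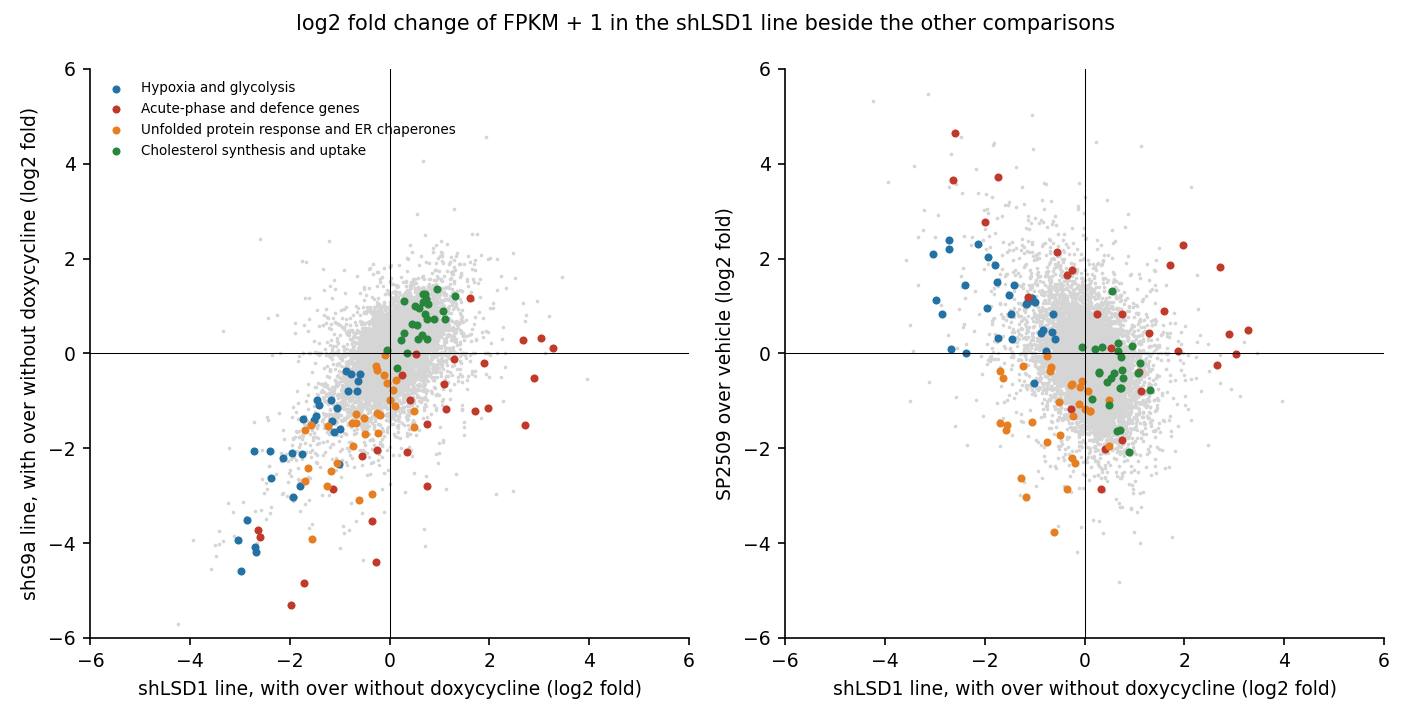
Log2 fold change of FPKM plus 1 in the shLSD1 line (x axis) beside the shG9a line (left, y axis) and SP2509 over vehicle (right, y axis), with all tested genes in grey and the members of 4 lists in colour. Hypoxia and glycolysis genes are low in both lines and mostly high with SP2509, and many acute-phase and defence genes lie to the right of 0 and below 0 in the shG9a line.

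In 10 groups of equal size by mean level, the median log2 change lay between 0.13 and 0.17 in 9 of them and was 0.02 in the highest, from 31.2 FPKM upward, where 16.3% of genes were lower. By length it was 0.02 in the shortest genes, up to 788 bases, and 0.10 to 0.18 in the others. By GC content it ran from 0.07 in the group richest in GC to 0.16. By chromosome the share of higher calls was lowest on chromosome 21, at 16 of 133 genes with 21 lower, and lay between 19.0% and 26.1% on every other autosome and the X chromosome.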

How the data were processed

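RNA from 8 Kyse510 libraries, 1 per condition, was read as pairs of 150 bases. Per the methods, the authors aligned them to GRCh38 with annotation release 87. The deposited values are FPKM, in 1 table for the knockdown lines and another for the inhibitors. The aligner, the counting tool and strand use are not given in the sources used here. Conditions came from the sample labels. The members and lists were chosen with earlier results of these data known.

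Whole reads were recovered from the steps of the FPKM values, for 99.996% of genes within 0.01 read and 99.65% to 99.83% of library totals, and were tested in place of a count table. Fold changes used a pseudocount of 1, and a call needed a fold of 1.3 and a two-sided exact binomial p under 0.05, unadjusted. TMM was written from its definition. Named genes were KDM1A and its list, up to 4 called members of each other list by size of change, the 12 protein-coding and 3 other genes that changed most in each direction with at least 50 reads, genes with the longest hairpin matches, and 3 genes in each direction opposed in the shG9a line. Others carry the reason they are given or are marked as chosen after their values were seen. A few genes that this rule names are not reported here. Of the members, 15 carry a date in place of a symbol and were not named. Hairpin sequences came from the study's supplement and were matched to GENCODE release 44, a later annotation on the same build. The procedure was tested on simulated data. Python 3 packages scipy and pandas were used. The alternatives tried were median centring, TMM, pseudocount 0.1, no filter, 5 FPKM, a 2-fold limit, fold alone, adjusted p, protein-coding genes, the mean of the uninduced libraries as control, and the fewest reads per gene.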

Additional observations from a re-analysis of the deposited data

Results flagged for a closer look

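The list of acute-phase, defence and inflammatory cytokine genes moved in opposite directions in the lines given doxycycline, with a median log2 change of 0.75 in the shLSD1 line and -1.49 in the shG9a line. Against the mean of both untreated libraries the shLSD1 median stood 0.38 above that of all genes, in place of 0.62. Among called genes with the largest opposite change in the shG9a line, SPP1, which encodes osteopontin, rose by 2.47 on the log2 scale (12.7 to 74.8 FPKM) and was at -2.91 in the shG9a line (15.9 to 1.24 FPKM). The pseudogene AC245100.3 was at 0.69 and -3.71. RNU7-75P was at 2.13 and -2.97, from 1 and 8 reads in the shLSD1 line. In the other direction, IGFBP5, an insulin-like growth factor binding protein, was at -0.66 and 1.63, and the G protein regulator RGS2 at -0.41 and 1.78. KCTD12, whose 3 prime UTR holds a match of 10 bases to the antisense arm of the shLSD1 hairpin, was at -0.40 and 1.79. With 1 library on each side the difference between the lines was not tested for any of these, and the genes were picked for being opposed.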

How the results depend on the processing

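Higher calls numbered 2945 and lower calls 1348. With TMM scaling 1865 genes were higher, with at least 5 FPKM 1821 were higher and 866 lower, and with a fold of at least 2 there were 346 and 326. The other settings for these counts gave 2005 to 3594 higher and 1103 to 1950 lower calls. Centring on the median gave 2005 higher and 1793 lower calls, or 52.8% higher, so the balance of directions rests on the scaling. The seed difference of -0.02 on the log2 scale stayed between -0.03 and -0.02 (bases 1 to 7, bases 3 to 9, a following A, or 5 FPKM). For the 28 list medians relative to all genes, 5 alternatives were run. That of the NRF2 list turned sign only with the mean of the untreated libraries as control, from 0.06 to -0.07. Of 140 values, 2 moved outside a 95% interval of the list median, set by the ranks of its members, which are not replicates. With at least 5 FPKM the median of the BCL2 list went from 0.19 to 0.38, that of the G1/S list from 0.20 to 0.08, and that of the ID, BMP, Notch and Wnt list from -0.25 to -0.14. Of 160 named genes, 12 lost their call under at least 1 alternative, 3 gained one and none reversed.

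No paired analysis was possible because each condition has 1 library. No replicate was left out for the same reason, no spread between cultures is known, and the reads set counting error only. The depth of 17507907 to 17754601 reads leaves few reads on short genes such as RNU7-75P.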
